A study of Mus musculus with 2 samples.

Results

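The microRNA-26 (miR-26) family of the mouse consists of 3 hairpin genes, Mir26b, Mir26a-1 and Mir26a-2, each lying in an intron of a gene for a small C-terminal domain phosphatase, and it was examined here in gastrocnemius, the large calf muscle. The 3 genes were taken by their symbols in the GENCODE vM21 annotation and not by a measured value, though earlier results of these data were known. All 3 were present among the 2202 microRNA genes of the count tables. The muscle was male B6CASTF1/J tissue, from the first-generation cross of C57BL/6 and CAST/EiJ, at 14 days of age. The study has 1 group of 2 biological replicates, with 1 small RNA library each and no second tissue, age, sex or treatment. Both replicates carry the same donor identifier, and the labels do not state if a replicate is 1 animal or a pool. The spread between replicates given below may therefore be partly technical, and in whole muscle fewer cells of a type and less RNA per cell cannot be told apart.

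A microRNA is cut from a hairpin precursor into a 5p and a 3p arm, and the arm loaded into the silencing complex recognises messenger RNAs mainly through its seed, bases 2 to 8. For the miR-26 family the 5p arm is the guide. miR-26a is known from mouse myoblasts to repress Ezh2, the histone methyltransferase that keeps muscle genes silent in progenitors, and the BMP and TGF-beta signal mediators Smad1 and Smad4, and its level increases as myoblasts differentiate. The host genes Ctdsp1, Ctdsp2 and Ctdspl encode phosphatases that act on RNA polymerase II and help silence neuronal genes in other cells.

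The mature arms, taken from RefSeq on GRCm38.p6, are shown because the family's counts depend on which letters its genes have in common. All are written 5′ to 3′ with the seed in capitals. The guide arms come first.
miR-26b-5p: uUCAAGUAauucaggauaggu
miR-26a-5p, from Mir26a-1 and from Mir26a-2: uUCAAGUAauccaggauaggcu
The passenger arms follow.
miR-26b-3p: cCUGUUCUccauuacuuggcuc
miR-26a-1-3p: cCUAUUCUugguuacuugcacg
miR-26a-2-3p: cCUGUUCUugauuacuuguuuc

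Both guide sequences have the seed UCAAGUA, and in the RefSeq table no mature microRNA of another gene has it. Counted from the 5′ end, with the base of miR-26a-5p first, miR-26b-5p differs by C11U and C21U, both outside the seed, and has 21 bases against 22. The guide of Mir26a-1 and the guide of Mir26a-2 are the same 22 letters. Their 3p arms are not. With the base of miR-26a-1-3p first, miR-26a-2-3p differs at 6 of 22 positions, and A4G falls in the seed. The seed CUGUUCU is common to miR-26a-2-3p and miR-26b-3p, while miR-26a-1-3p has CUAUUCU. Mir7039 and Mir6932 also have a 3p arm with the seed CUGUUCU, and neither gene had a count in either library.

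The hairpins are shown next with both mature arms in capitals, since the deposited counts are per hairpin and do not separate the arms.
Mir26b hairpin: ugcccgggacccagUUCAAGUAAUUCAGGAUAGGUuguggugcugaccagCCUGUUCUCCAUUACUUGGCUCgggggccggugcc
Mir26a-1 hairpin: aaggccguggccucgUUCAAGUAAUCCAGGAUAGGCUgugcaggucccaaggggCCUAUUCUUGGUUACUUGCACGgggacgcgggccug
Mir26a-2 hairpin: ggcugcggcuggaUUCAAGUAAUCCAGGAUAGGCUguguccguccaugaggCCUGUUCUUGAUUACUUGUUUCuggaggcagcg

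On mm10, Mir26b (ENSMUSG00000065468.1) lies on the plus strand of chromosome 1, from 74394310 to 74394394. It is in intron 4 of Ctdsp1, an intron of 564 bases, 2801 bases from the start of the host's protein-coding transcript. Mir26a-1 (ENSMUSG00000065513.1) lies on the plus strand of chromosome 9, from 119031796 to 119031885. Its host Ctdspl spans 117546 bases, and the hairpin sits in intron 5 of its 8-exon transcript, 105343 bases from the start of that transcript. Mir26a-2 (ENSMUSG00000065430.1) lies on the plus strand of chromosome 10, from 126995530 to 126995613, in intron 5 of the Ctdsp2 transcript that spans it and 16813 bases from the start of that transcript. All 3 hairpins are on the strand of their host, and none overlaps an exon of a host transcript that spans it. The coordinates of the hairpins in GENCODE and in RefSeq were the same.

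The family genes stand apart from other microRNA genes. For Mir26b the nearest microRNA gene in the table was 187690 bases away, and for Mir26a-1 it was 1032366 bases away. Mir26a-2 has a neighbour in the same host, Mir546, which lies 2827 bases downstream and overlaps an exon of a Ctdsp2 transcript. Mir546 had 1 count in replicate 1 and 0 in replicate 2, both under the limit of 3 counts that a count of 0 allows.

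The longest stretch of letters common to the hairpins of Mir26a-1 and Mir26a-2 is 25 bases, the whole guide arm and the next 3 bases of the loop. Between Mir26b and Mir26a-1 it is 11 bases, and between Mir26b and Mir26a-2 it is 10. Every stretch of 22 bases in each hairpin was searched on both strands among the 1005 RefSeq hairpins and 141767 GENCODE transcripts other than those of its own host. Of 64 such stretches in Mir26b, 64 were found nowhere else. In Mir26a-1, 4 of 69 stretches were also in Mir26a-2, and in Mir26a-2, 4 of 63 were also in Mir26a-1, in each case those that begin at the first 4 bases of the guide arm. The genome itself was not searched.

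**Figure D1:**
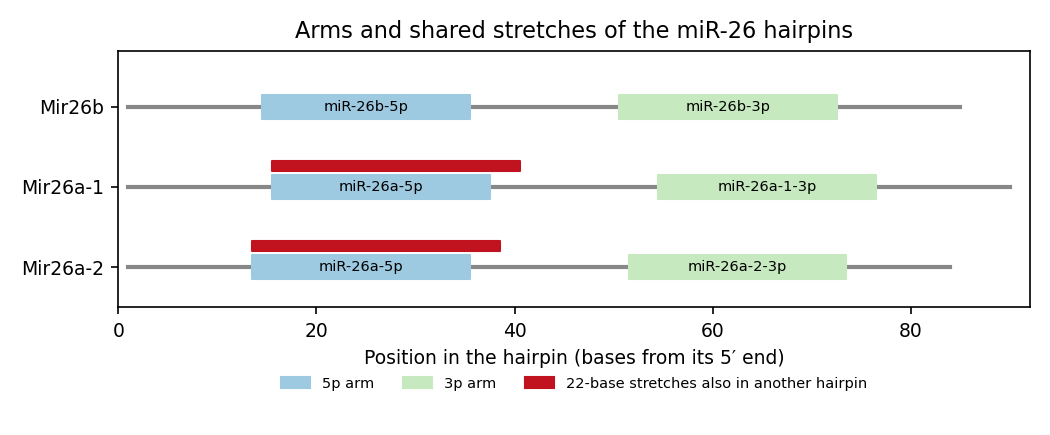
The 3 miR-26 hairpins drawn to scale, with position in bases from the 5′ end of each hairpin on the horizontal axis, the 5p arm in blue and the 3p arm in green. The red bars cover the 22-base stretches found in another hairpin: they lie over the guide arm of Mir26a-1 and Mir26a-2, and Mir26b has none.

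In the deposited tables a read that mapped to several loci is on a line of its own and in no gene's count. That line held 4421485 of 10056843 reads (44.0%) in replicate 1 and 4266018 of 8189059 reads (52.1%) in replicate 2, and how many of those reads were miR-26a-5p was not given. The counts of Mir26a-1 and Mir26a-2 below therefore do not measure miR-26a-5p, whose letters are at both loci. They measure the reads that could be placed at 1 locus. The own-strand counts summed to 2743657 in replicate 1 and 2211254 in replicate 2. CPM is the count scaled to a library total of 1000000 assigned reads.

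As a check of the tissue, all 5 listed skeletal muscle genes had counts, and together they held 6.95% of assigned counts in replicate 1 and 6.92% in replicate 2. Nearly all of that was Mir206, at a mean of 68099 CPM, while Mir486 (610.9 CPM), Mir499 (277.2 CPM), Mir1a-2 (246.2 CPM) and Mir208b (84.3 CPM) were far lower. The list leaves out other muscle genes, which were lower still: Mir133b (26.2 CPM), Mir133a-1 (17.0 CPM), Mir133a-2 (1.82 CPM) and Mir1a-1 (12.2 CPM). Counts of the 5 listed genes are therefore only a part of a tissue check. The count of Mir1a-2 does not measure miR-1a-3p, which Mir1a-1 is known to make as well. Mir486, Mir133a-1 and Mir133a-2 are not in the RefSeq table, so it was not checked if their arms lie at another locus. Markers of other cells were present too. Endothelial Mir126a, at a mean of 89259 CPM, stood above Mir206, and the smooth muscle pair Mir143 and Mir145a held 3.67% in replicate 1 and 3.49% in replicate 2. The 2 red cell and 3 leukocyte genes all had counts, at mean levels of 89.9 to 387.4 CPM, and the liver microRNA Mir122 had 120.2 CPM. The neuronal Mir124a-1, Mir124a-2, Mir124a-3 and Mir9-2 had no count, but miR-124 and miR-9 are each made from several loci with the same mature arm, so these zeros do not check the tissue.

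Mir26b carried nearly all counts of the family. It had 47440 counts in replicate 1 and 42685 in replicate 2, which is 17291 CPM (95% Wilson interval 17137 to 17446) in replicate 1 and 19304 CPM (19123 to 19486) in replicate 2. Its mean was 18297 CPM ± 1423 (SD, n = 2), a spread of 7.78% of the mean. Replicate 2 was the higher of the pair, and the intervals, which cover counting error only, did not overlap.

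Mir26a-1 had 401 counts in replicate 1 and 324 in replicate 2. That is 146.2 CPM (132.5 to 161.2) in replicate 1 and 146.5 CPM (131.4 to 163.4) in replicate 2, so the libraries lay on nearly the same level, with a mean of 146.3 CPM ± 0.260 (SD, n = 2). Mir26a-2 had 213 counts in replicate 1 and 196 in replicate 2. Its level was 77.6 CPM (67.9 to 88.8) in replicate 1 and 88.6 CPM (77.1 to 101.9) in replicate 2, with a mean of 83.1 CPM ± 7.78 (SD, n = 2). The intervals of the libraries overlapped for Mir26a-1 and for Mir26a-2. None of the 3 genes had a read on the opposite strand in either library, and none has a microRNA gene annotated there, so counting either strand left their counts as they were.

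Together the 3 genes held a share of 1.75% of the assigned counts of replicate 1, with a 95% Wilson interval of 1.74 to 1.77, and of 1.95% for replicate 2, with an interval of 1.94 to 1.97. Within the family Mir26b made up 98.72% of counts in replicate 1 (98.62 to 98.82) and 98.80% in replicate 2 (98.69 to 98.90). The intervals of the family share lay apart between the libraries, and those of Mir26b within the family overlapped. Of the counts of the Mir26a pair, Mir26a-1 held 65.3% in replicate 1 (61.5 to 69.0) and 62.3% in replicate 2 (58.1 to 66.4).

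The order of assigned counts was Mir26b, Mir26a-1 and Mir26a-2 in both libraries. Mir26b stood at 118.3 times Mir26a-1 in replicate 1 (95% Clopper-Pearson interval 107.2 to 130.8) and 131.7 times in replicate 2 (118.1 to 147.4). Against Mir26a-2 the ratio was 222.7 (194.7 to 256.0) in replicate 1 and 217.8 (189.3 to 251.9) in replicate 2. Mir26a-1 stood at 1.88 times Mir26a-2 (1.59 to 2.23) in replicate 1 and 1.65 times (1.38 to 1.98) in replicate 2. Each of these intervals lies above 1, with the replicates' intervals overlapping in every pair. The ratios of Mir26b over the Mir26a genes compare a gene whose guide arm is in 1 annotated hairpin with genes whose guide arm is in 2. They do not give the ratio of miR-26b to miR-26a.

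A small RNA read spans a whole mature arm, so hairpin length is not expected to set its count, and the hairpins are of similar length. Per 100 bases of hairpin the mean levels were 21526 CPM ± 1674 for Mir26b, 162.6 CPM ± 0.289 for Mir26a-1 and 99.0 CPM ± 9.26 for Mir26a-2 (SD, n = 2 each). The order of the 3 genes was the same on this scale.

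**Figure D2:**
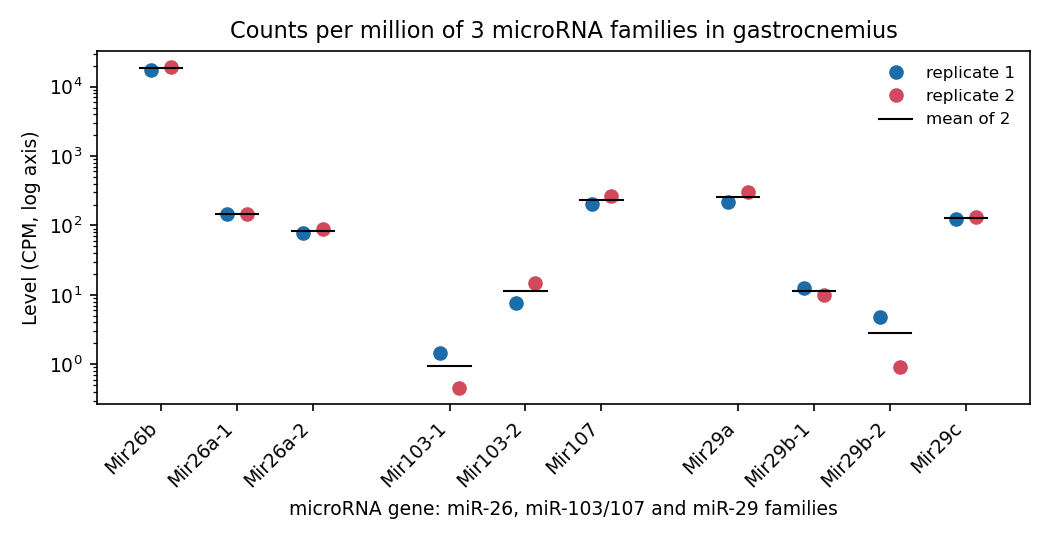
Level in CPM on a log axis for the genes of the miR-26, miR-103 with miR-107, and miR-29 families, with replicate 1 in blue, replicate 2 in red and the mean of the 2 libraries as a bar. Mir26b is near 18297 CPM, Mir26a-1 near 146.3 CPM and Mir26a-2 near 83.1 CPM, and the Mir103 and Mir29b genes with an arm at 2 loci lie below Mir107, Mir29a and Mir29c.

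By mean CPM Mir26b ranked 14 of the 629 genes with a count, Mir26a-1 ranked 158 and Mir26a-2 ranked 188. In the order of Mir26b, Mirlet7d (19583 CPM ± 1176) and Mir99a (18449 CPM ± 2927) were next above, and Mir335 (17671 CPM ± 1724), whose host is the imprinted gene Mest, and Mir21a (16074 CPM ± 598) were next below (SD, n = 2 each). Within each library the order was clearer than these SDs. Mirlet7d was above Mir26b in both libraries, with 18751 CPM (replicate 1) and 20414 CPM (replicate 2), and Mir335 was below it in both, at 16451 and 18890 CPM, each value outside the counting interval of Mir26b in the same library. Mir21a was below it in both as well, at 16497 and 15651 CPM. Mir99a changed sides: it was higher than Mir26b in replicate 1 (20519 against 17291 CPM) and lower in replicate 2 (16379 against 19304 CPM).

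The neighbours of Mir26a-1 in the order were Mir708 (157.5 CPM ± 1.68), Mir16-2 (156.8 CPM ± 8.14), Mir374b (144.0 CPM ± 17.5) and the neutrophil microRNA Mir223 (138.7 CPM ± 0.236). All of their values but that of Mir16-2 in replicate 1 (162.6 CPM) lay inside the counting interval of Mir26a-1 in the same library. Next to Mir26a-2 stood Mir144 of red cells (89.9 CPM ± 24.5), Mir208b of the slow myosin gene Myh7 (84.3 CPM ± 0.314), the hypoxia-induced Mir210 (82.4 CPM ± 12.9) and Mir330 (80.1 CPM ± 25.6). The means of all 4 were within 1 SD of Mir26a-2.

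Among microRNA genes in an intron of a protein-coding gene on the same strand, 273 of 746 had a count, and Mir26b ranked 4. Mir378a in Ppargc1b (117291 CPM ± 8973), Mirlet7g in Wdr82 (46287 CPM ± 5137) and Mir23b in 2010111I01Rik (27505 CPM ± 2120) were above it, and Mir335 followed. Mir26a-1 ranked 49 and Mir26a-2 ranked 60 in this class.

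**Figure D3:**
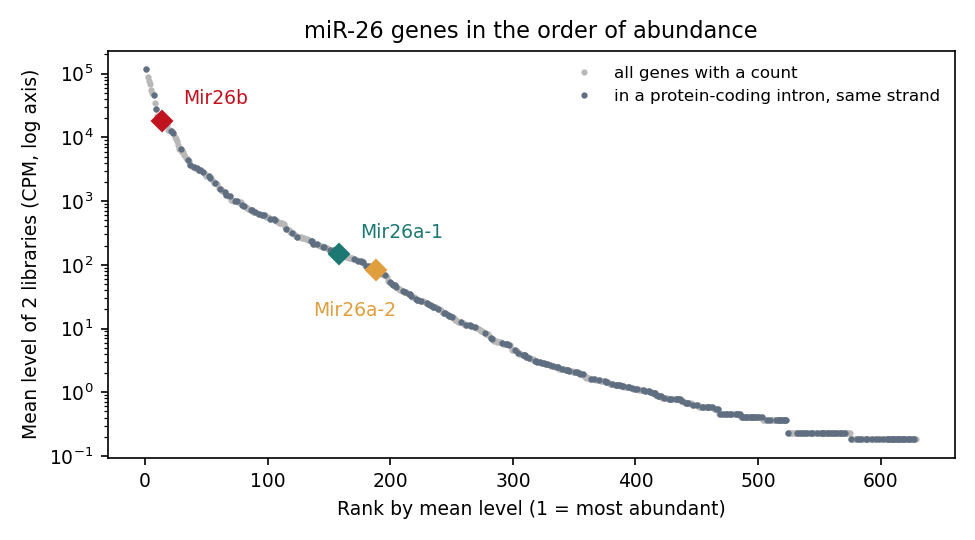
Mean CPM of the 2 libraries on a log axis against rank for the 629 genes with a count, with genes in a same-strand protein-coding intron in dark grey and the miR-26 genes as diamonds. Mir26b is at rank 14, and Mir26a-1 (158) and Mir26a-2 (188) lie far to its right on the slope of the curve.

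Replicate 1 was set against replicate 2 to see which levels moved between the libraries, over the 258 genes at 10 CPM or more in both. Of all genes tested, 131 (50.8%) differed by more than counting error, and 49 (19.0%) were lower in replicate 1 (exact binomial test with library sizes scaled by edgeR's trimmed mean of M-values, Benjamini-Hochberg adjustment at 0.05, no fold threshold). All 3 miR-26 genes were tested and 1 passed, Mir26b, and against a background of 50.8% that count says nothing particular about the family. Mir26b was lower in replicate 1, at −0.11 on the log2 scale (adjusted p = 2.5e-30, exact binomial test). Here and below a log2 ratio subtracts the log2(CPM + 1) of replicate 2 from that of replicate 1. The same exact test gave an adjusted p of 0.792 for Mir26a-1, at a log2 ratio of 0.04 that was −0.0036 with sizes from total counts, and of 0.431 for Mir26a-2, at −0.14, on 196 to 401 counts each.

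The size of the Mir26b ratio was below the median absolute log2 ratio of all genes tested, 0.178. With edgeR's exact test, which adds the common spread between the libraries, a coefficient of variation of 12.8%, to counting error, Mir26b did not pass (adjusted p = 0.995), and 3 of the 258 genes did, Mir137, Mir138-1 and Mir1249, all lower in replicate 1. That spread was estimated from the same pair of libraries that the test compares, so few genes could pass it, and a miss does not show that levels were equal. Scaled by total counts instead, the called genes were 66 higher and 67 lower in replicate 1, against 82 and 49 with the trimmed mean, and Mir26b stayed lower in replicate 1 at a log2 ratio of −0.16.

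**Figure D4:**
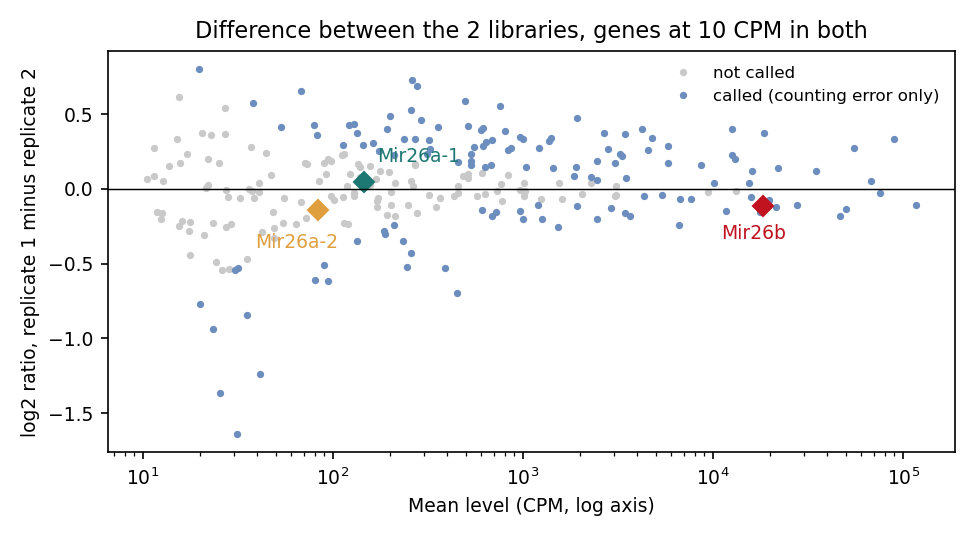
Log2 ratio of replicate 1 minus replicate 2 against mean CPM on a log axis for the 258 genes at 10 CPM in both libraries, with genes past the exact binomial test in blue and the miR-26 genes as diamonds. Mir26b (−0.11), Mir26a-1 (0.04, and −0.0036 with total counts) and Mir26a-2 (−0.14) lie close to 0, inside the spread of genes of like level.

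Both the family of miR-103 and miR-107 and the miR-29 family have, like miR-26, a pair of genes with an identical arm and relatives with no such arm in the RefSeq table. The genes of miR-103 and miR-107 lie in introns of pantothenate kinase genes, enzymes of coenzyme A synthesis. Mir107 in Pank1 had 200.8 CPM in replicate 1, against 264.1 CPM in replicate 2. Mir103-1 in Pank3 and Mir103-2 in Pank2, which encode the same miR-103-3p, had 4 and 21 counts in replicate 1 and 1 and 33 counts in replicate 2. Mir107 was thus 26.2 times Mir103-2 in replicate 1 (17.0 to 42.7) and 17.7 times in replicate 2 (12.5 to 26.0).

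In the miR-29 family, whose members repress collagen genes, Mir29a had 216.5 CPM in replicate 1, against 301.2 CPM in replicate 2, and Mir29c 124.3 and 133.0 CPM. Mir29b-1 and Mir29b-2, with the same miR-29b-3p, had 35 and 13 counts in replicate 1 and 22 and 2 counts in replicate 2. In both families, as in miR-26, the genes with an arm at 2 loci had fewer assigned counts than their relatives in both libraries. This order does not hold in every family. By mean level Mir181b-2 (775 CPM), with an arm found at another locus, was above Mir181c (615 CPM) and Mir181d (630 CPM), which have none. Mir181a-1 (270.5 CPM), Mir181a-2 (27.1 CPM) and Mir181b-1 (8.12 CPM), also with such an arm, were below them. How far reads that mapped to several loci account for the gaps in miR-26, miR-103 with miR-107 and miR-29 was not tested.

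The ratio of Mir26b to Mir26a-1 lay above that of Mir107 to Mir103-2 in both libraries, with intervals apart. Against Mir103-1 the ratio of Mir107 rests on 4 counts in replicate 1 and 1 in replicate 2 and was 137.8 (53.5 to 507.4) and 584.0 (104.4 to 23106). Mir29a over Mir29b-2, on 13 and 2 counts of Mir29b-2, was 45.7 (26.5 to 86.3) in replicate 1 and 333.0 (91.8 to 2755) in replicate 2. Mir29a over Mir29b-1 was 17.0 in replicate 1 and 30.3 in replicate 2. Both miR-26a genes had more assigned counts than any Mir103 or Mir29b gene in both libraries. The miR-26 family held 1.85% ± 0.143 of assigned counts, the miR-103 and miR-107 family 0.0245% ± 0.00492 and the miR-29 family 0.0402% ± 0.00613 (SD, n = 2 each).

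Other microRNAs known to target Ezh2 were set beside the family. Mir214, from the Dnm3os transcript of connective tissue and muscle, was the most abundant of the 5 listed genes, with 4738 CPM in replicate 1 against 3708 CPM in replicate 2. Mir101b in an intron of Rcl1 was at 927.6 and 792.8 CPM, and Mir101a at 82.7 and 53.8 CPM. Mir138-1 was at 23.7 and 59.2 CPM, and Mir138-2 at 14.2 and 25.8 CPM. Mir26b was higher than each of the 5 in both libraries, and their sum was 0.579% of assigned counts in replicate 1 and 0.464% in replicate 2, below the miR-26 family. The Ezh2 background given above is for miR-26a, while Mir26b held most counts of the family. Mir26a-1 and Mir26a-2 were below Mir214 and Mir101b in both libraries and above Mir138-1 and Mir138-2. Against Mir101a, Mir26a-1 was higher in both libraries and Mir26a-2 in replicate 2 only. Mir138-1 and Mir138-2 encode the same miR-138-5p, and a read that maps to both loci is in neither count, so the order and the sum hold for assigned counts only.

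All 5 differed between the libraries past counting error (exact binomial test), 3 higher and 2 lower in replicate 1, beside 50.8% of all genes tested, with a median log2 ratio of 0.27 beside 0.04 over all genes tested. Mir138-1 (log2 ratio −1.24, adjusted p = 9.9e-09 by the exact binomial test) and Mir138-2 (−0.77, adjusted p = 0.016 by the same test) had the larger ratios, followed by Mir101a (0.66, adjusted p = 0.00012, exact binomial test). Mir26b at −0.11 had a smaller ratio than each of them. With edgeR's exact test Mir138-1 was the 1 gene of the 5 that passed (adjusted p = 0.021).

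Of 17 listed microRNA genes known from myogenic differentiation, which do not include the Mir133 genes, all had a count and 14 were tested. Replicate 1 was higher for 5 and lower for 4, and 5 did not pass (exact binomial test), beside 50.8% called over all genes tested, with a median log2 ratio of 0.03 beside 0.04 over all genes tested. None of the 14 tested passed edgeR's exact test, which called 3 of all genes tested, and 15 at an unadjusted p under 0.05. Mir378a, in the gene of a mitochondrial coactivator, and Mir206, which promotes myoblast differentiation, were above Mir26b in both libraries. Mir322, which promotes cell cycle exit of myoblasts, was below it, with 12901 CPM in replicate 1 against 13449 CPM in replicate 2, as was Mir27b, which represses the progenitor factor Pax3, at 5236 and 4265 CPM. No other gene of the 17 was above Mir26b in either library, but Mir24-1, Mir24-2, Mir181a-1, Mir181a-2, Mir29b-1 and Mir29b-2 also have a mature arm found at another locus, so their counts are under the same limit as those of the Mir26a pair. The same holds for Mir1a-1 (12.2 CPM) and Mir1a-2 (246.2 CPM), both of which are known to make miR-1a-3p, a main microRNA of skeletal muscle, and their counts do not measure it.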

How the data were processed

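The deposited tables, 1 per library, hold raw read counts per microRNA gene in 3 columns (either strand, own strand, opposite strand), made by the authors on mm10 with annotation M21 per the notes deposited with them. The aligner, the counter and the adapter trimming are not given in the sources used here. The 4 lines that name no gene, 72.7% of reads in replicate 1 and 73.0% in replicate 2, stayed out of library sizes and tests. CPM was computed here from the own-strand counts. Symbols, positions and hosts came from GENCODE vM21, and sequences from RefSeq (GRCm38.p6), whose table is not complete and matched 1018 of the 2202 genes by symbol and all 3 members.

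Replicates were compared with edgeR 4.0.16 scaling in R 4.3.3 and a two-sided exact binomial test over genes at 10 CPM in both libraries. The test was tried on data simulated with counting error alone. The libraries here differ by more than that, so the simulation does not show how the test behaves on them. The test sets 1 library against the other and allows for counting error alone, as do intervals (95%) and the limit of 3 counts that a count of 0 allows (1.09 CPM in replicate 1 and 1.36 CPM in replicate 2). PCR reads are not independent molecules. DESeq2 1.42.0 size factors were an alternative. The planned search of the genome was replaced by hairpins and transcripts. Named genes are the members, the 2 genes next above and below each by mean CPM, genes with a member's seed, and the listed families. The Mir133 genes, in no list, were added after the values were seen. Members and lists were chosen with earlier results of these data known.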

Additional observations from a re-analysis of the deposited data

How the results depend on the processing

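Counting either strand shrinks the total and moved the level of Mir26b to 23847 CPM, of Mir26a-1 to 190.8 CPM, of Mir26a-2 to 108.3 CPM and the family share to 2.42%. Against all reads of a library the same values were 4965, 39.7 and 22.6 (on the scale of 1000000 reads) and 0.503%. With other loci that have an arm identical elsewhere left out, Mir26a-1 moved to rank 143 and Mir26a-2 to 171. Leaving genes out can only raise a rank. Mir26b kept rank 14, which this setting could not change. The highest gene with such an arm in the RefSeq table was Mirlet7f-2, at 3635 CPM, below Mir26b. The log2 ratios between members could not change with either-strand counts or with all reads as denominator, since both leave a ratio as it was. Per hairpin base they were 7.05 for Mir26b over Mir26a-1, 7.77 for Mir26b over Mir26a-2 and 0.72 for Mir26a-1 over Mir26a-2. The main values were 6.96, 7.78 and 0.82. Over single libraries they ranged from 6.89 to 7.04, 7.77 to 7.80 and 0.73 to 0.91 in the same order. A single library of a pair always lies within their SD of the mean, so leaving out a replicate is no check. Between replicates, Mir26b at −0.11 lost its call with edgeR's exact test (adjusted p = 0.995), which takes its spread from the same libraries and called 3 genes against 131, and kept it under the 7 other settings (adjusted p from 9.4e-60 to 4.3e-24). Mir26a-1, not called under any setting, turned to −0.0036 with total counts. Scaling over the tested genes only was added after seeing the data. At 100 CPM Mir26a-2 was not tested. No paired analysis was possible because there is 1 group. The counts behind Mir26a-1 and Mir26a-2, 196 to 401 per library, set the width of their intervals, and reads that mapped to several loci limit what those counts measure.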

Other observations

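The Mir26a pair was placed among all genes of the table with 1 mature arm identical at another locus and 1 arm that is not, by the RefSeq table, which lacks many loci. Of 57 such genes, 46 had a count, with a median of 21.01 CPM over those 46. Mir26a-1 ranked 15 and Mir26a-2 ranked 18 among them. Above them stood Mirlet7f-2 at 3635 CPM, Mir196a-2 at 1013 CPM, Mir181b-2 at 775 CPM and Mir128-1 at 720 CPM, and 17 genes reached 100 CPM. Of 924 genes with no arm identical elsewhere in that table, 491 had a count, with a median of 3.00 CPM, and 147 reached 100 CPM. This class can hold genes whose arm is also at a locus that the table lacks. Mir1a-1 is in it because Mir1a-2 is not in the table. The highest of the first class was 3635 CPM and of the second 89259 CPM. Neither class holds the 1183 genes that are not in the RefSeq table, whose highest was 117291 CPM. Of 37 genes whose every annotated arm is repeated, 8 had a count. These classes were counted after the values were seen, and no test was made.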
